A study of Mus musculus with 9 samples.

Results

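Muscle of mice fed a high-fat diet, with or without L-carnitine in the drinking water, was compared with muscle of mice fed a control diet. All 9 libraries of the series entered the comparison, 6 from the high-fat diet pooled (high-fat diet 1 to 3 and carnitine 1 to 3) and 3 from the control diet (control 1 to 3). The mice were wild-type C57BL/6J, an inbred laboratory strain, aged 9 weeks when assigned, and were acclimatised for 2 weeks before feeding for 8 weeks. Control mice ate a chow with 10% of energy from fat, and both other groups a diet with 60%. L-carnitine, which carries long-chain fatty acids into mitochondria, was given to 1 of the high-fat groups at 100 mg/kg/day. Every group, control included, was fasted for 6 h before tissue collection. The muscle sampled is not named in the labels, and the libraries are not stated to be separate mice, so the p-values measure only the spread between these libraries, which may be technical.

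Short food deprivation and stress hormones act on muscle through a set of quickly induced genes. Glucocorticoids switch on genes that restrain growth, among them the inhibitor of mTORC1 Ddit4 and the leucine zipper gene Tsc22d3, while contraction, adrenaline and cAMP switch on immediate early genes such as Nr4a1. A diet rich in fat is known to favour PPAR target genes, which serve the uptake and oxidation of fatty acids.

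The libraries held 2315985 to 3773649 counts each. Most counts (81.9% to 88.9% of a library) lay on features whose exons overlap those of a gene on the other strand. Reads of such a pair cannot be told apart, because no source used here gives the strand setting of the counting. The kit marks strand, yet in 1075 of 1355 pairs of a protein-coding gene and a long non-coding RNA (79.3%, pairs with at least 100 counts) the non-coding row held more counts than the coding row, with a median of 86.4% of a pair's counts. A stranded library counted with the opposite setting would give rows that hold reads from the strand opposite to the named gene. That setting was not tested, and it bears on every value here, also on genes with no opposite gene such as Ddit4, Tecpr2 and Nr4a1, and on Slc25a25. Gene names therefore stand for the rows of the deposited file. Where a feature shares exon sequence in this way, the opposite gene is named beside it. Features without an opposite gene held 12.35% ± 2.53 of the counts in control (SD, n = 3) and 11.69% ± 2.24 on the high-fat diets (SD, n = 6), a difference of −0.654 percentage points (two-sided exact permutation test, p = 0.619, where the smallest possible p was 0.0119). The share was lowest in control 2 (9.55%), carnitine 2 (8.65%) and carnitine 3 (9.32%). Defining genes of muscle fibres were present in every library. The 12 fibre markers summed to 54400 to 78900 CPM in control and 39100 to 68500 CPM on the high-fat diets (CPM are counts scaled to a common total, here with TMM factors). Within the latter the sum was 55500 to 68500 CPM on the high-fat diet alone, inside the control range. With carnitine it was 39100 to 44600 CPM, below every control library. In bulk muscle, fewer cells of a type and less RNA per cell cannot be told apart.

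Of 7523 features with enough counts to test, 29 changed between the high-fat libraries and control, which is 0.385% of those tested (edgeR's quasi-likelihood test, adjusted p below 0.05). There were 9 rises (0.12%) and 20 falls (0.266%). With the 6 high-fat libraries fitted as 1 group 9 features passed (1 rise and 8 falls), and with DESeq2 58 passed (18 rises and 40 falls). Without adjustment, 565 features had a p below 0.05 (7.51%), 253 of them higher (3.36%) and 312 lower (4.15%). Regardless of p, 3654 features were higher (48.6%) and 3869 lower (51.4%). The groups did not overlap in 24 of the 29, while over all tested features 1.44% lay wholly above control and 1.74% wholly below. The falls included a mitochondrial carrier, which had the lowest fold change, stress and glucocorticoid-responsive regulators, and immediate early genes. The rises included features opposite the cytokine-signalling inhibitor gene Cish, which had the highest fold changes, and the vesicle coat gene Sec24a and splicing factor gene Rbm20. The features opposite Cish did not pass with the 6 high-fat libraries fitted as 1 group. Of the 29 features, 15 share exon sequence with an opposite gene, 11 have no opposite gene and 3 overlap the span of one without shared exon sequence. Scaled by library totals alone, without TMM, 6 rose and 7 fell. The count rests on control 2, without which Slc25a25 alone passed, and it was 10 without control 3, 8 without high-fat diet 1, 14 without high-fat diet 3, 19 without carnitine 2 or carnitine 3 and 59 without carnitine 1. Ddit4, Tecpr2, 4930544D05Rik and Gm17041 passed in each of these fits except the one without control 2 (adjusted p = 0.0755, 0.0872, 0.151 and 0.0754 there), Tob2 in 7 of the 9, and the other 23 features in 1 to 6. Under the other planned settings, such as other tests, scaling or filters, 23 of the 29 lost their call at least once and 6 did not.

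Upstream sequences of 4 genes that fell are shown because they hold the cAMP response element, the sequence bound by the factor CREB, or its core. Each is the 250 bases before a RefSeq transcript start, in the direction of the gene and on build GRCm38.p6, with every TGACG, the core of that element, on either strand in capitals. For Slc25a25 the window is chr2:32424067-32424316 on the minus strand, 1 of 3 start sites. Tecpr2 is at chr12:110889014-110889263, Nr4a1 at chr15:101266596-101266845 and Cebpb at chr2:167688665-167688914, all on the plus strand.
Slc25a25: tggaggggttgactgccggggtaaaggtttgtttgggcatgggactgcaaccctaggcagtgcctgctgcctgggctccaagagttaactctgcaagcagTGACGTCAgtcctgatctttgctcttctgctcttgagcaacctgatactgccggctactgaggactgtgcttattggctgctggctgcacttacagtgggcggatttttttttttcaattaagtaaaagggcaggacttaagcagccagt
Tecpr2: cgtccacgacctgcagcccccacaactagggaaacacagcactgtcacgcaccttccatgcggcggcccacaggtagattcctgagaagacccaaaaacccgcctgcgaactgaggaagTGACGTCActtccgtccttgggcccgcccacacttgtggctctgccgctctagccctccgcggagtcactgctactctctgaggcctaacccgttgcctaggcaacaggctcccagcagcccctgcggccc
Nr4a1: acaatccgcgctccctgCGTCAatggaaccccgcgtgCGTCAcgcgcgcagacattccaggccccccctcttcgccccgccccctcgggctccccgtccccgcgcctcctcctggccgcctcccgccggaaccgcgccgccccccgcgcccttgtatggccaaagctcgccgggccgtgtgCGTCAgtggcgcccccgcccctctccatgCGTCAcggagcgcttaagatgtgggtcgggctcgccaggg
Cebpb: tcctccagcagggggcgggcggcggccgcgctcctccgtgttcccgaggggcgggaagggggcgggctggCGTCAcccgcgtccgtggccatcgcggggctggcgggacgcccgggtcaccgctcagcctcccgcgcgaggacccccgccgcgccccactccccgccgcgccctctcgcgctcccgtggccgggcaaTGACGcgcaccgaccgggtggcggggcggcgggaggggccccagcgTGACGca

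The full palindrome TGACGTCA, which contains TGACG on both strands, began 150 bases before the start of Slc25a25 and 131 bases before that of Tecpr2. It is in 1.55% of the 32817 mouse windows of this length. The core TGACG occurred in 7 of the 18 windows found for 14 of the 20 falling features, against 17.7% of all windows. Besides the genes printed, these were Klf2, Tsc22d3 and Rsrp1. Nr4a1 held 4 such cores and Cebpb 3. None lay in the windows of Ddit4, Tob2, Gadd45g, Smpd4, Smtnl2, Gm32312 and Gm15270, nor at the other start sites of Slc25a25 and Tsc22d3. The other motifs searched on both strands were the glucocorticoid receptor motif AGAACA (1 window of falling features, 16.1% of all windows), the FOXO site GTAAACA (2 windows, 3.16%), the E-box CACGTG (1 window, 6.02%), the CCAAT box (6 windows, 33.8%) and the serum response element core (0 windows, 0.0609%). Of the 3 windows found for rising features, 1 held TGACG. The motifs were chosen after the expression values had been seen, and a match describes letters only.

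Slc25a25, a calcium-regulated carrier of ATP-Mg and phosphate in the inner mitochondrial membrane, showed the largest fall of the 29 (GRCm39 chromosome 2, 32304499 to 32341457, minus strand; its exons share 379 bp with Naif1). Its level was 39.4, 14.7 and 27.0 CPM in control 1 to 3, against 4.96, 0.696 and 1.49 CPM on the high-fat diet and 2.65, 0.428 and 0.481 CPM with carnitine. Every high-fat library lay below every control library. The mean fell from 27.0 ± 12.4 CPM (SD, n = 3) to 1.79 ± 1.77 CPM (SD, n = 6), giving a log2 fold change (log2FC) of −3.97 (SE 0.52, adjusted p = 0.000337). It alone passed whichever of the 9 libraries was left out. The row of Naif1 was at −0.44 (SE 0.76, adjusted p = 0.969), and the sum over both rows fell by 2.66 in log2FC (SE 0.42, adjusted p = 0.00391). No other member of the 17 tested mitochondrial carriers passed, and the list was split into 9 higher and 8 lower with a median log2 fold change of 0.08. That median was 0.18 without and −0.11 with carnitine. The carriers with the next smallest p were Slc25a34 (log2FC 1.12, adjusted p = 0.789) and the oxoglutarate carrier Slc25a11 (0.23, adjusted p = 0.915).

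Among regulators that respond to glucocorticoids and stress, 4 of 23 tested list members fell and none rose. Over all tested features 0.266% fell and 0.12% rose. The list was chosen with earlier results of these data known. Ddit4 (chromosome 10, 59785491 to 59787656), which restrains the growth kinase mTORC1, was at 35.4, 57.3 and 48.0 CPM in control. It was at 8.51, 4.64 and 16.3 CPM on the high-fat diet and at 17.4, 5.14 and 5.77 CPM with carnitine, with no overlap. Its mean fell from 46.9 ± 10.97 to 9.64 ± 5.78 CPM (log2FC −2.28, SE 0.37, adjusted p = 0.00438). Tsc22d3, also called GILZ, ranged over 33.8 to 87.8 CPM in control and 8.99 to 32.3 CPM on the high-fat diets, so that the groups came close without overlapping (log2FC −1.65, SE 0.34, adjusted p = 0.0281). Gadd45g, a growth arrest gene induced by stress, was at 30.3, 46.0 and 56.6 CPM in control and at 5.29 to 24.9 CPM in the 6 other libraries (−1.67, SE 0.34, adjusted p = 0.0236). The transcription factor gene Cebpb, opposite Tmem189 (312 bp shared), was at 125, 103 and 110 CPM in control, at 61.7, 66.8 and 76.9 CPM on the high-fat diet and at 44.0, 50.96 and 53.4 CPM with carnitine (−0.95, SE 0.21, adjusted p = 0.0353). The row of Tmem189 held 13952 counts over all libraries, against 1902 for Cebpb, and was at −0.79 (SE 0.20, adjusted p = 0.0906). Summed over both rows the log2FC fell by 0.81 (SE 0.18, adjusted p = 0.0413).

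The whole glucocorticoid list had 16 members lower and 7 higher, with a median log2 fold change of −0.66 against −0.02 over all tested features. At an unadjusted p below 0.05, 8 were lower and 2 higher, while over all tested features 4.15% were lower and 3.36% higher. The repressor gene Nfil3 was at −1.73 (SE 0.45, adjusted p = 0.0906), and its control range of 5.26 to 23 CPM overlapped the 2.14 to 9.22 CPM of the high-fat libraries. Named after their values were seen, the kinase gene Sgk1 was at −1.76 (adjusted p = 0.201) and the glutamine synthetase gene Glul, opposite Teddm2, at −0.92 (adjusted p = 0.143). Fbxo32, opposite Gm15943, and Trim63, ubiquitin ligase genes that glucocorticoids also induce in wasting muscle, had values on the other side, at 0.90 (adjusted p = 0.367) and 0.68 (adjusted p = 0.471). Further list members lay near 0 or above it, and none of them passed. These were Fkbp5 (0.0008), Klf9 (−0.11), Pdk4 (0.19), Angptl4 (0.54) and Zbtb16 (0.58). In the 14 members with no opposite gene the median was −0.40. Without control 2, none of the 4 falls passed.

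Of 15 tested immediate early genes, 2 fell, 9 had a lower and 6 a higher mean, and the median log2 fold change was −0.51. Over all tested features 0.266% fell, and this list too was chosen with earlier results known. Klf2, a zinc finger factor best known in endothelium and lymphocytes, was at 22.6, 10.3 and 7.23 CPM in control, which rests on 62, 21 and 22 counts. It had 0, 9 and 1 counts on high-fat diet alone and 3, 9 and 0 with carnitine, so all 6 libraries lay below control at low depth (log2FC −3.37, 95% interval −4.81 to −1.94, SE 0.70, adjusted p = 0.0264). Klf2 lost its call by limma-voom (adjusted p = 0.0922), by library totals without TMM (0.102), with the share of counts on features with no opposite gene as a covariate (0.0576), and on leaving out any of 5 single libraries (up to 0.412), and DESeq2 gave it no adjusted p. The 7 endothelial markers had positive log2 fold changes (median 0.64), with a summed level of 42.4 to 56.1 CPM in control and 40.6 to 179 CPM on the high-fat diets. Lymphocyte markers summed to 1.45 to 15.1 CPM in control and 0 to 3.83 CPM on the high-fat diets. All 3 tested markers of Schwann cells and nerve were lower (median log2 fold change −1.84, none passed), and the 6 in the file summed to 5.43 to 55.4 CPM in control and 1.91 to 24.3 CPM on the high-fat diets. Each marker present in the file had counts in at least 1 library. The part of these cells in the values of Klf2 and the other early genes was not tested. Nr4a1 (chromosome 15, 101152150 to 101172676), an orphan nuclear receptor induced by contraction and adrenaline, was at 32.9, 15.2 and 21.4 CPM in control, 6.74, 8.59 and 2.60 CPM on the high-fat diet alone, and 9.86, 3.43 and 8.65 CPM with carnitine. The groups did not overlap (−1.79, SE 0.40, adjusted p = 0.0471). Jun, opposite Junos, was at 64.7 ± 20.6 against 30.7 ± 13.5 CPM (−1.13, SE 0.28, adjusted p = 0.0857), with carnitine 1 lowest at 14.0 CPM and overlap between the groups. The opposite row Junos held 6125 counts over all libraries against 1043 for Jun, and was at −0.65 (adjusted p = 0.331).

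Features opposite the early genes Jund and Ccn2 also fell, while Junos, opposite Jun, did not pass. Gm11175, a non-coding feature that shares 877 bp of exon with the AP-1 gene Jund, was at 414, 799 and 433 CPM in control, 261, 291 and 172 CPM on high-fat diet alone and 243, 383 and 268 CPM with carnitine (log2FC −1.03, SE 0.23, adjusted p = 0.0407). The row of Jund held 8.60% as many counts and was at −0.51 (SE 0.27, adjusted p = 0.700). Gm15270 shares 665 bp with Ccn2, which encodes a matrix-associated growth factor, and was at 94.2, 196 and 122 CPM in control. It reached 34.5 to 86.1 CPM in the 6 high-fat libraries (−1.34, SE 0.27, adjusted p = 0.0229), while the row of Ccn2 was at −1.53 (SE 0.54, adjusted p = 0.372). The summed loci fell too, Jund with Gm11175 by 1.00 (adjusted p = 0.0318) and Ccn2 with Gm15270 by 1.35 (adjusted p = 0.0147) in log2FC. With the counts of opposite features summed, 4 of 16 immediate early loci changed, against 2 of 15 single features and 0.385% of all single features tested. The added loci are those of Jund and Ccn2. They hold the rows Gm11175 and Gm15270, which had passed by themselves, so they are no further result about early genes. Control 2 was the highest library for both features, and without it they were at −0.65 and −0.98.

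Falls outside these lists included Tecpr2, Tob2, Zmym1 and a feature opposite Trim7. Tecpr2 (chromosome 12, 110855698 to 110938828), which acts in autophagy and at sites of export from the endoplasmic reticulum, was at 263, 370 and 254 CPM in control, 116, 100 and 122 CPM on the high-fat diet and 88.0, 162 and 153 CPM with carnitine. The gap between the groups was wide, and the mean fell from 296 ± 64.6 to 124 ± 29.1 CPM (log2FC −1.26, SE 0.21, adjusted p = 0.00438). It was the only one of 30 tested autophagy genes to pass, in a list with 17 members higher and 13 lower (median 0.18). The list median was 0.27 without and −0.11 with carnitine. The reticulophagy receptor gene Retreg1 was at 0.82 (SE 0.28, adjusted p = 0.329). Tob2, an antiproliferative factor that recruits the deadenylase complex to messenger RNA, was at 27.0 to 37.2 CPM in control and 5.94 to 12.1 CPM on the high-fat diets (−1.81, SE 0.33, adjusted p = 0.0108). The opposite row Gm49476, with more counts, was at −0.90 (SE 0.23, adjusted p = 0.0906). Gm16170, opposite the ubiquitin ligase gene Trim7 (491 bp shared), was at 108, 85.6 and 104 CPM in control and at 42.3 to 59.1 CPM in the other libraries (−1.04, SE 0.21, adjusted p = 0.0229). The row of Trim7 was at −0.45 (adjusted p = 0.756), and the summed Trim7 locus did not pass (−0.82, adjusted p = 0.0524). Zmym1 rested on 53, 32 and 23 counts in control and 0 to 12 in the high-fat libraries (−2.81, SE 0.57, adjusted p = 0.0229). Its opposite row Gm12940 shares 1709 bp and was at −0.08, and the summed locus was at −0.41 (adjusted p = 0.730).

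**Figure D1:**
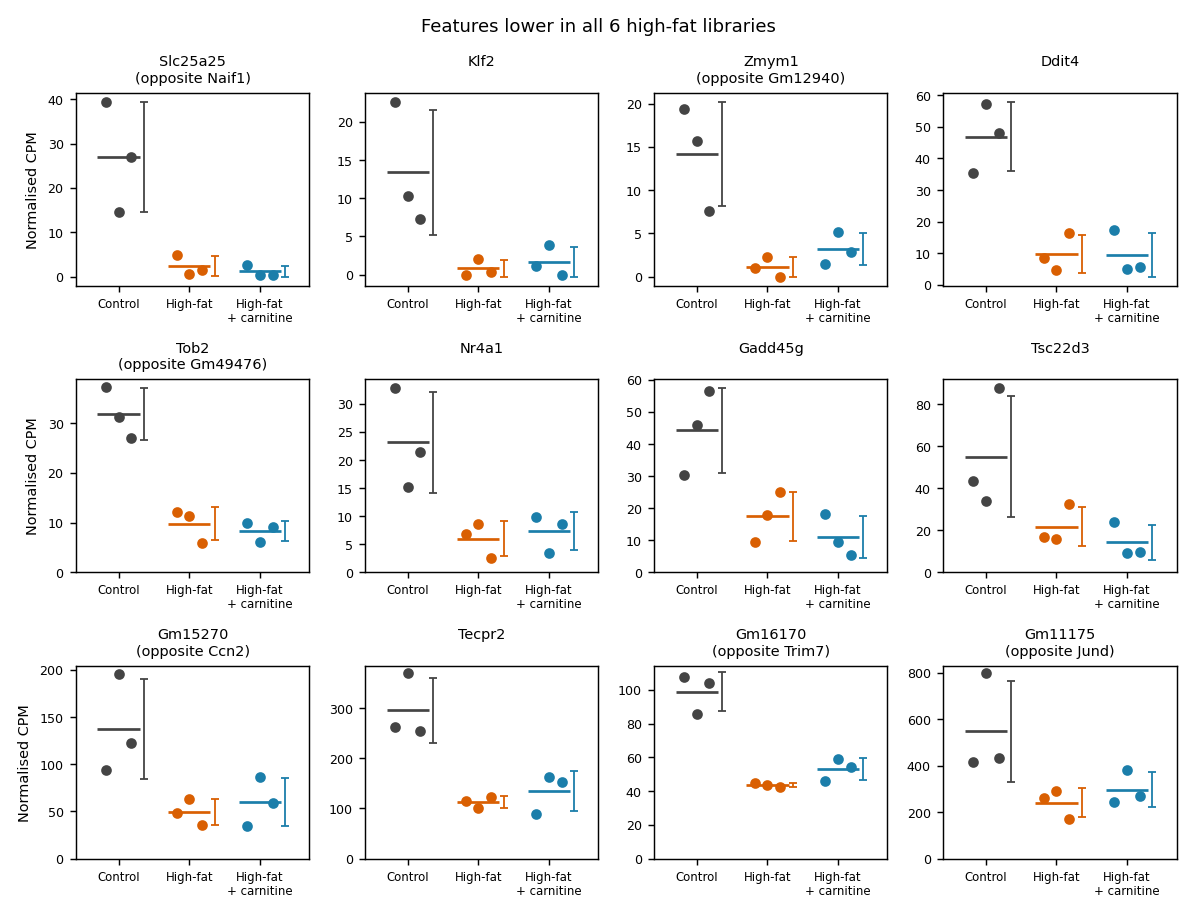
Level of the 12 falling features named by rule, in TMM-normalised CPM on a linear axis, by group. Points are single libraries in label order, horizontal lines are group means and bars are ± 1 SD over 3 libraries; in each panel all 6 high-fat libraries lie below the 3 control libraries.

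Of the remaining falls Cebpb is described above, and the other 7 are named here after their values were seen. Gm32312, opposite the gene of the muscle-secreted peptide Ostn, was at −2.04 (SE 0.35, adjusted p = 0.0124), but control 1 at 30.3 CPM lay within the high-fat range of 15.9 to 33.1 CPM, while control 2 and 3 were at 132 and 115 CPM. 4930544D05Rik, whose span overlaps the acetylcholine receptor gene Chrne, was at 61.3, 117 and 67.1 CPM in control and 14.9 to 37.4 CPM on the high-fat diets (−1.64, SE 0.29, adjusted p = 0.00859). Rsrp1 (−1.01, adjusted p = 0.0407) and 4921516A02Rik, opposite the pyridoxal kinase gene Pdxk (−1.02, adjusted p = 0.0491), also showed no overlap. The groups overlapped for the sphingomyelinase gene Smpd4 (−1.29, adjusted p = 0.0372), for Smtnl2 (−1.19, adjusted p = 0.0490) and for Gm26714, opposite Tcim (−1.02, adjusted p = 0.0491). Per length, in the FPKM that the authors deposited, the 9 falling genes with no opposite gene had control means of 6.39 (Nr4a1) to 39.5 FPKM (Rsrp1).

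Sec24a and Rbm20 were the rising protein-coding genes that share no exon sequence with an opposite gene. Sec24a (chromosome 11, 51583091 to 51654461), which selects cargo for the COPII coat of vesicles leaving the endoplasmic reticulum, was at 21.5, 26.4 and 31.9 CPM in control. It was at 69.5, 52.7 and 92.8 CPM on the high-fat diet and at 61.0, 197 and 82.2 CPM with carnitine, so carnitine 2 stood highest and no library overlapped control (log2FC 1.75, SE 0.33, adjusted p = 0.0162). It was the only one of 17 tested genes of the COPII coat and vesicle traffic to pass. Its paralog Sec24c, opposite 6230400D17Rik, was at 0.66 (SE 0.24, adjusted p = 0.378) and Preb, opposite Abhd1, at 0.57 (SE 0.29, adjusted p = 0.679), in a list of 9 higher and 8 lower (median 0.05). Rbm20 (chromosome 19, 53665737 to 53855511), the splicing factor that controls titin isoforms in striated muscle, was at 7.30, 5.38 and 3.95 CPM in control (11 to 20 counts). It was at 18.8, 14.9 and 27.9 CPM on the high-fat diet alone and 14.8, 15.4 and 22.6 CPM with carnitine, without overlap (1.77, SE 0.40, adjusted p = 0.0490). No other of 19 tested genes of alternative splicing passed (median −0.05), among them Srpk3 at −1.24 (adjusted p = 0.692) and Mbnl1 at 0.46 (adjusted p = 0.794). Neither Sec24a nor Rbm20 passed without control 1, control 2, control 3 or high-fat diet 1, and Rbm20 passed only without carnitine 1.

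Most of the other rises were features that lie opposite known genes. Gm17041 (chromosome 9, 107177579 to 107179037) shares 479 bp of exon with Cish, a feedback inhibitor of cytokine receptors, and was at 12.4, 14.2 and 15.5 CPM in control, 27.3, 60.6 and 33.4 CPM on high-fat diet alone and 142, 537 and 394 CPM with carnitine. The 3 groups were stepped without overlap, and the pooled log2 fold change was 3.10 (SE 0.40, adjusted p = 0.00293). Gm26588, opposite the monoacylglycerol lipase gene Mgll (167 bp shared), was at 12.4, 21 and 19.4 CPM in control and 36.2 to 59.5 CPM in the other libraries (1.38, SE 0.29, adjusted p = 0.0236). Mgll itself was at 0.77 (SE 0.50, adjusted p = 0.817), and the summed locus rose by 1.26 (adjusted p = 0.0359). 1700020L24Rik, opposite the metalloprotease gene Mmp28 (466 bp shared), was at 11.5 to 23.98 CPM in control and 34.1 to 65.2 CPM on the high-fat diets (1.26, SE 0.29, adjusted p = 0.0490). Gm11131 shares 496 bp with the MHC class I gene H2-Q4 and was at 68.6, 81.7 and 75.0 CPM in control, 121, 128 and 118 CPM on high-fat diet alone and 227, 275 and 174 CPM with carnitine. Its groups did not overlap (1.15, SE 0.22, adjusted p = 0.0134), and the summed H2-Q4 locus rose by 1.12 (adjusted p = 0.00944). H2-Q4 belongs to a family of near-identical genes, whose reads the counting may have split. None of the 8 tested genes of the interferon response and MHC passed (median 0.21). Named after their values were seen, Gm17040, also opposite Cish (2.54, adjusted p = 0.0229), Gm41442, which has no opposite gene (1.39, adjusted p = 0.0220), and Gm19221, within the span of Sav1 (2.10, adjusted p = 0.0490), complete the 9 rises. Gm17040 overlapped control, with high-fat diet 3 at 5.57 CPM and control 3 at 5.92 CPM. It did not pass with the 6 high-fat libraries fitted as 1 group (adjusted p = 0.75) or by limma-voom (0.522).

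**Figure D2:**
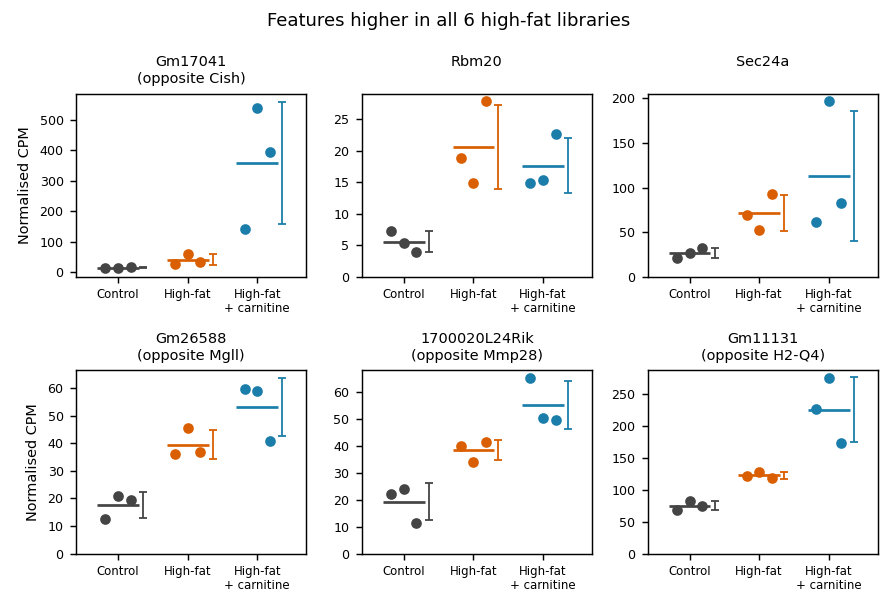
Level of the 6 rising features named by rule, in TMM-normalised CPM on a linear axis, by group. Points are single libraries in label order, lines are group means and bars are ± 1 SD over 3 libraries; all 6 high-fat libraries lie above control, and for Gm17041 the carnitine libraries reach 142 to 537 CPM.

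Whether the response was shared by the groups with and without carnitine was tested by their difference within the same fit. Over all features 4 differed between carnitine and the high-fat diet alone (0.0532% of those tested), and 2 of them, Gm17041 and Gm17040, were among the 29. Gm17041 was 3.13 higher on the log2 scale with carnitine (95% interval 2.27 to 4.00, adjusted p = 0.00588) and Gm17040 3.04 higher (2.03 to 4.06, adjusted p = 0.00898). These differences lost their calls by limma-voom (adjusted p = 0.0873 and 0.138), with the share of counts on features with no opposite gene as a covariate (2.39 and 2.06, adjusted p = 0.389 and 0.567) or for the summed Cish locus (3.10, adjusted p = 0.0522). That of Gm17040 did not pass either without high-fat diet 1 (0.176) or without carnitine 2 (0.244). Without control 2, carnitine 2 and carnitine 3 together, the libraries with the lowest such share, the differences were 1.77 (adjusted p = 0.0157) and 1.43 (0.27). For these features the pooled value averages unequal changes, 1.54 against 4.67 and 1.01 against 4.06 relative to control. Among the 12 named falls the difference ran from −0.84 to 1.33, with adjusted p of 0.496 to 0.996. A p that misses the threshold does not show equal responses, and the intervals give the precision. For Ddit4 the values were −2.27 without and −2.28 with carnitine, with a 95% interval of −1.03 to 1.01 for the difference. For Tecpr2 they were −1.39 and −1.14 (interval −0.27 to 0.78), for Nr4a1 −1.92 and −1.66 (interval −0.79 to 1.33), and for Slc25a25 −3.55 and −4.39 (interval −2.48 to 0.79). Rbm20 was at 1.87 and 1.66 (interval −1.05 to 0.62) and Sec24a at 1.42 and 2.09 (interval −0.04 to 1.37). The carnitine value lay farther from control in 8 of the 9 rises, all but Rbm20, and in 9 of the 20 falls. The interval of the difference left out 0 for 8 of the 29 features. These were 6 in which carnitine was higher (Gm17041, Gm17040, Gm11131, Gm41442, Gm19221 and Gm26714) and 2 in which it was lower, Rsrp1 (−0.73) and Smtnl2 (−1.37), though 6 of the 8 had an adjusted p above 0.05. Against control, the high-fat diet alone passed for Slc25a25, Tecpr2 and Gm26714 only (adjusted p = 0.0258, 0.0258 and 0.0392, same edgeR fit). No rise passed there, and the smallest adjusted p of a rise was that of Rbm20 (0.0836). With carnitine more of the 29 passed against control, among them every rise except Rbm20 (0.122). Passing in 1 group and not in the other is no test of their difference. The values of the separate groups share the control libraries and are not independent.

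**Figure D3:**
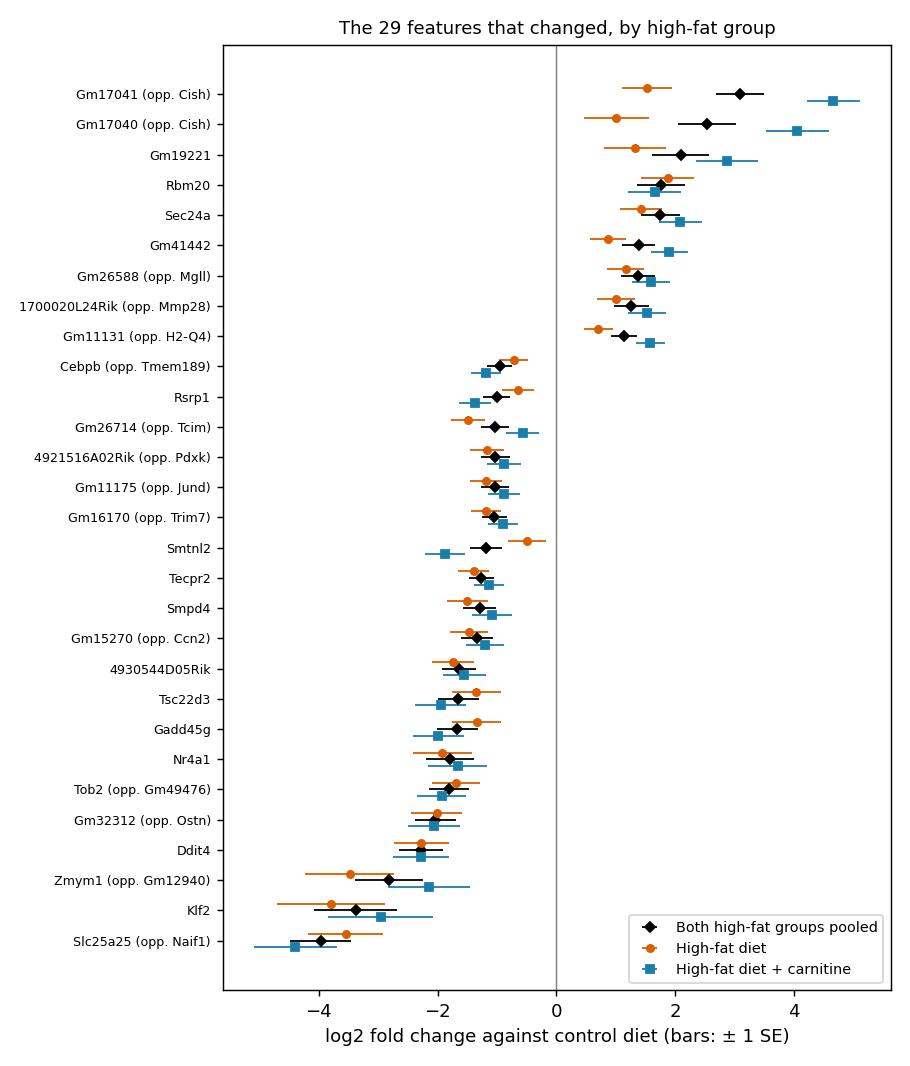
Log2 fold change against control diet for the 29 changed features, on the horizontal axis, for both high-fat groups pooled (diamonds), the high-fat diet (circles) and the high-fat diet with carnitine (squares). Bars are ± 1 SE from the fit; the features opposite Cish are the pair whose groups differ past the threshold, at 1.54 against 4.67 and 1.01 against 4.06.

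No single row of the fat-use lists passed, although most of the means were higher on the high-fat diets. By summed loci 1 did, the monoacylglycerol lipase locus Mgll with Gm26588 described above. PPAR target genes had 14 of 18 tested members higher (median log2FC 0.33), at medians of 0.67 without and 0.10 with carnitine. Txnip, a redox regulator opposite Gm15441, was at 46.8 ± 20.03 against 89.2 ± 35.8 CPM (0.91, SE 0.33, adjusted p = 0.403), and the thioesterase gene Acot2 at 4.71 ± 4.11 against 16.3 ± 10.4 CPM (1.57, SE 0.60, adjusted p = 0.471). Of 25 tested genes of fatty acid oxidation in mitochondria 17 were higher (median 0.14). The long-chain dehydrogenase gene Acadl was at 24.1, 23.98 and 38.8 CPM in control, 65.6, 81.7 and 48.3 CPM on the high-fat diet and 94.8, 48.8 and 25.5 CPM with carnitine. Carnitine 3 lay within the control range, and the difference did not pass (1.06, SE 0.33, adjusted p = 0.245). Lipid droplet and lipolysis genes had 12 of 18 members higher (median 0.28), at medians of 0.47 without and −0.05 with carnitine. The triglyceride lipase gene Pnpla2 was at 0.79 (SE 0.30, adjusted p = 0.416) and Fabp4 at 0.74 (SE 0.30, adjusted p = 0.483). Fabp4 is also an adipocyte marker, and the summed level of the 6 adipocyte markers in the file was 39.8 to 59.8 CPM in control and 48.2 to 129 CPM on the high-fat diets. The part of adipocytes was not tested.

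Lists of growth and protein breakdown were mixed. The atrophy and FOXO list had 12 of 19 members higher (median 0.34), and none passed. Its median was 0.56 without and −0.16 with carnitine, on opposite sides of 0, and this difference was not tested. Over all tested features with no opposite gene these medians were 0.12 and −0.20. Over those that share exon sequence they were −0.06 and 0.11. Cited2, a transcriptional co-regulator, was at 6.85 to 14.5 CPM in control and 15.9 to 37.6 CPM on the high-fat diets, without overlap, and missed the threshold (log2FC 1.42, SE 0.34, adjusted p = 0.0714). Asb2, a ubiquitin ligase subunit that limits muscle mass, was at 187 ± 41.8 against 109 ± 29.8 CPM (−0.82, SE 0.20, adjusted p = 0.0857). It passed when opposite features were summed into loci, with the same log2 fold change and an adjusted p of 0.0458. Of 20 tested genes of mTORC1 and growth control Ddit4 alone passed (9 higher, 11 lower, median −0.14). The median of that list was 0.42 without and −0.31 with carnitine. Mlst8, an mTOR subunit opposite Bricd5, was listed at 0.545 ± 0.499 against 3.44 ± 1.54 CPM, near the level that 3 counts give (2.62, adjusted p = 0.506).

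Contractile, glycolytic and ribosomal genes had lower means, none of which passed. Fast fibre proteins had 22 of 23 members lower (median log2FC −0.42), at medians of −0.21 without and −0.63 with carnitine. Myh4, the myosin of the fastest fibres, was at 33621 ± 9624 against 22833 ± 7046 CPM (−0.59, SE 0.21, adjusted p = 0.372), and muscle creatine kinase Ckm, opposite A930016O22Rik, at 6329 ± 1302 against 4498 ± 1177 CPM (−0.53, SE 0.19, adjusted p = 0.373). The row of A930016O22Rik held 3223906 counts against 129073 for Ckm, and was at −0.20 (adjusted p = 0.902). Slow fibre proteins had 9 of 15 higher (median 0.28) with wide spread, as Myh7 was at 4.02, 36.2 and 1.97 CPM in control and 0 to 4.18 CPM on the high-fat diets. Glucose uptake and glycolysis had 19 of 25 lower (median −0.28), with Pgk1 at 63.9 ± 10.03 against 37.4 ± 14.2 CPM and no overlap (−0.79, SE 0.27, adjusted p = 0.340). The regulator of glycolytic flux Pfkfb3 had a value on the other side (1.36, SE 0.45, adjusted p = 0.373). Creatine kinase and adenylate buffering genes had 9 of 12 lower (median −0.39), and the only one to pass was Slc25a25. Cytosolic ribosomal proteins had 65 of 76 lower (median −0.26), at medians of −0.08 without and −0.50 with carnitine. The class of features without an opposite gene lay at a median of −0.04 in the pooled comparison, at 0.12 for the high-fat diet alone and at −0.20 for carnitine, beside the lower shares of such features in carnitine 2 and 3. The part of that share in these lists was not tested.

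Among 19 tested clock output genes 1 fell, Tsc22d3, and 14 were lower (median log2FC −0.12), while 0.266% of all tested features fell. The glycogen-targeting subunit gene Ppp1r3c was at 26.3, 46.0 and 37.8 CPM in control, 24.8, 15.8 and 22.7 CPM on the high-fat diet and 20.1, 3.43 and 3.85 CPM with carnitine, just without overlap (−1.38, SE 0.39, adjusted p = 0.176). Of 12 tested core clock genes none passed (median −0.08), and Per1, which glucocorticoids and cAMP also induce, was at 21.8 ± 8.08 against 9.51 ± 5.62 CPM (−1.20, SE 0.42, adjusted p = 0.357). Across the pathway lists of this comparison, 10 different members changed in all, while 0.385% of all tested features changed. The lists were chosen with earlier results of these data known and none was tested. The count therefore cannot show whether changed features were more frequent in the lists than elsewhere.

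**Figure D4:**
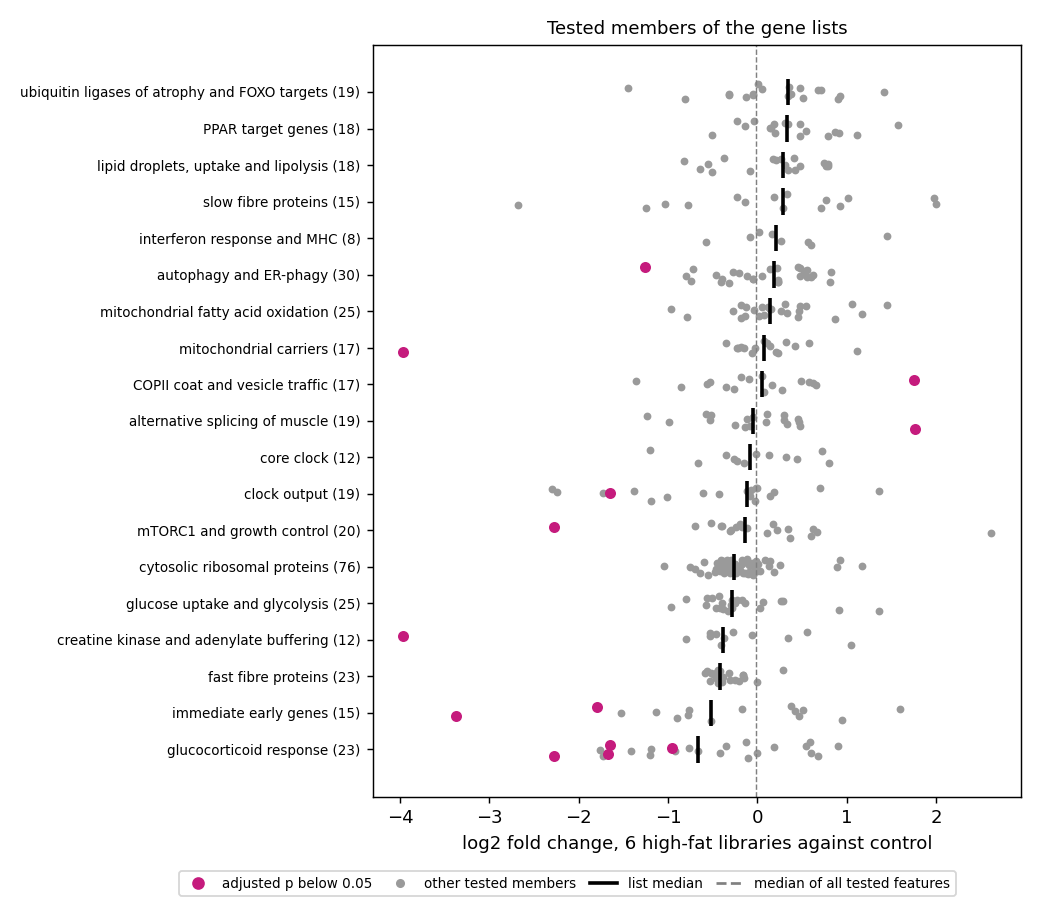
Log2 fold change of the tested members of 19 gene lists, 6 high-fat libraries against control, with the number of tested members after each name. Large coloured points passed an adjusted p of 0.05, black bars are list medians and the dashed line is the median of all tested features (−0.02); glucocorticoid response and immediate early genes have the lowest medians, −0.66 and −0.51.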

How the data were processed

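Polyadenylated RNA of mouse muscle was sequenced with a stranded kit, per the labels' protocols, in 3 control, 3 high-fat diet and 3 high-fat diet with carnitine libraries. Per the submitters' processing notes, which give no roles, the tools were HISAT2 2.2.0, HTSeq 0.13.5, Bowtie2 2.4.2, Trim Galore 0.6.4 and edgeR, and the builds were GRCm39, GRCh38 and Rnor_6.0. The authors deposited raw whole-number counts per feature for 19335 features, with GRCm39 coordinates. They also deposited FPKM values, which follow the counts and their totals in 4047 features checked (largest relative deviation 1.11e-14) and are quoted as levels per length only.

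Counts were fitted with edgeR 4.0.16 in R 4.3.3 (TMM, default expression filter, robust quasi-likelihood F-test). All 9 libraries entered 1 fit with 3 groups, and the mean of both high-fat groups was set against control. Benjamini-Hochberg adjustment ran over the 7523 features tested. SE is the size of the log2 fold change over the root of F, and group values are means of normalised CPM ± SD. Opposite-strand genes were taken from GENCODE M21, which holds 19097 of the features but is on an older build, so it served only to find overlaps, and promoter sequences are RefSeq's on GRCm38.p6. Counts of features that share exon sequence on opposite strands were also summed into loci. Where a count is 0, the limit is 3 counts (0.795 to 1.30 CPM before TMM scaling), which covers counting error only.

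Features were named by a rule: up to 12 changed features with the largest fall and 12 with the largest rise, averaging 1 CPM or more, without overlap of the 6 high-fat and 3 control libraries. Predicted features were skipped unless they share exon sequence with a named gene. In each list described, every changed member and the 3 with the smallest p were added. The rule, the 45 pathway lists and the 12 cell type lists were chosen with earlier results of these data known, so no p was adjusted over a list and no list was tested. Alternatives were DESeq2 1.42.0, limma-voom (limma 3.58.1), other scaling and filters, 2 groups in place of 3, the replicate number as a block, separate classes of features, summed loci, a covariate and each library left out. Replicates of a group differed by more than sampling noise in every pair, by a chi-square of 9.35 to 43.72 per degree of freedom.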

Additional observations from a re-analysis of the deposited data

Results flagged for a closer look

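In the 6 high-fat libraries, 2 of the 29 changed features had 1 library set apart from the others by a gap that takes up most of the range. Sec24a was at 197 CPM in carnitine 2, with the next library at 92.8 CPM. Smpd4 was at 47.5 CPM in carnitine 2, above control 3 at 41.8 CPM, with the next high-fat library at 28.4 CPM. Chance alone flags about 1 in 20 groups of values, and 29 were examined. Carnitine 2 is also the library with the lowest share of counts on features with no opposite gene (8.65%), and the part of that share in these values was not tested. Without carnitine 2, Sec24a was at a log2 fold change of 1.44 and still passed.

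The high-fat groups differed from each other, by the test of the difference, for the features opposite Cish among those that changed. Gm17041 was 3.13 higher on the log2 scale with carnitine than without, and Gm17040 was 3.04 higher. The difference lost its call with limma-voom, with the share covariate and for the summed locus (adjusted p of 0.0522 to 0.567). All 3 carnitine libraries lay above the 3 high-fat diet libraries for both features.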

How the results depend on the processing

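The main fit called 29 features (9 rises and 20 falls), of which 10 were on the pathway lists and 2 differed between the high-fat groups. In this order the counts were 58 (18, 40), 17 and 5 with DESeq2, 88 (28, 60), 22 and 5 with no filter on low counts, and 57 (14, 43), 15 and 3 with a filter of 1 CPM in 3 libraries. They were 13 (6, 7), 4 and 2 by library totals without TMM, 9 (1, 8) and 5 list members with the 6 high-fat libraries as 1 group, and 50 (14, 36), 11 and 0 with the share of counts on features with no opposite gene as a covariate. Features with no opposite gene fitted by themselves gave 11 (3, 8), 8 and 0, and features that share exon sequence 18 (5, 13), 2 and 2. With counts summed over loci, 27 changed (7, 20), 17 held a list gene and 0 differed between the high-fat groups. With limma-voom 32 changed (6, 26), 11 on lists, and 0 differed between the high-fat groups. Where this last count was 0 by these fits, 3 to 10 of the changed features differed at an unadjusted p below 0.05. With the high-fat libraries as 1 group it has no value. Size factors of DESeq2 in edgeR left all counts as they were.

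Leaving out each library in turn gave 1 to 59 features, 0 to 23 rises, 1 to 36 falls, 1 to 20 list members and 0 to 6 that differed between the high-fat groups. The lowest values came without control 2, where 274 features rose at an unadjusted p below 0.05, and the highest without carnitine 1. The share of counts on features with no opposite gene differed by −2.05 to 0.4 percentage points, and was higher on the high-fat diets only without control 1 (0.4, exact permutation p = 0.821). Chosen after seeing the data, leaving out together control 2, carnitine 2 and carnitine 3 gave 92 (36, 56), 27 and 15, and turned Cry2, which did not pass, from 0.80 to −0.233. No other named feature changed direction under any setting run.

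Replicate numbers are not stated to pair the samples, and libraries with the same number deviated together with correlations of −0.164 to 0.142. With the replicate block 29 features changed (7 rises and 22 falls), 8 on lists and 2 between the high-fat groups. Nr4a1, Rsrp1, Cebpb, Rbm20, 1700020L24Rik and Gm19221 did not pass in that fit.

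The causes of these differences were not tested. Klf2, Zmym1, Slc25a25, Rbm20, Gm17040 and Gm19221 rest on few counts per library in at least 1 group, which limits their fold changes.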
